A study of Mus musculus with 2 samples.

Results

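The miRNAs described here come from a group of hairpins on the mouse X chromosome that lie beside Mir322: miR-503, miR-351, miR-542, miR-450a and miR-450b. The members were chosen by name, as 9 mature names (mmu-miR-503-5p, mmu-miR-503-3p, mmu-miR-351-5p, mmu-miR-351-3p, mmu-miR-542-3p, mmu-miR-542-5p, mmu-miR-450a-5p, mmu-miR-450b-5p and mmu-miR-450b-3p, written without the species prefix from here on) out of the 1477 miRNA names found in the series, and all 9 were found in both libraries. miR-322-5p and miR-322-3p, from the first hairpin of the group, are shown for reference. The series holds 2 replicate libraries of 1 group: cultured mouse skin keratinocytes, kept in a low-calcium medium, that exogenously expressed desmoplakin fused to the biotin ligase BirA (Dsp-BirA) and were given biotin. Desmoplakin is a protein of the desmosomal plaque, so proteins near it were labelled, pulled down on streptavidin with their RNA, and the RNA was ligated and sequenced by CLEAR-CLIP, a method that can join an Argonaute-bound miRNA to its target. There was no second condition, no input and no unlabelled control among the samples analysed, so the values are amounts recovered, not enrichment at the plaque, and how much each cell held and how well it was captured cannot be told apart. Nothing in the labels says whether the replicates were separate cultures, so the spread between them may be technical.

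A miRNA hairpin is cut into a duplex of a 5p and a 3p strand, of which an Argonaute protein usually keeps a single strand, the guide. The guide finds its targets mainly through the seed, bases 2 to 8 from its 5′ end. miR-503 and miR-322 (the mouse counterpart of human miR-424) are known for restraining the cell cycle, with cyclin D1 and Cdc25a among their targets, and are induced when myoblasts leave the cycle. The tables hold miRNA counts only, so no target and no measure of the cell cycle bears on that name here.

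Mature sequences from RefSeq (GRCm38.p6) were matched by name for all 9 members. They are shown with the seed in capitals, because the seeds place the members in different families. miR-503-5p is set beside miR-322-5p and miR-16-5p, the most abundant miRNA of the miR-15/16 family:
miR-503-5p: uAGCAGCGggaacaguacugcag
miR-322-5p: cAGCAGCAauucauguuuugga
miR-16-5p: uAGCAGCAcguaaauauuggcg
The seed of miR-503-5p differs from those of miR-322-5p and miR-16-5p by G8A, counted from the 5′ end with the base of miR-503-5p first, so all 3 share bases 2 to 7. miR-351-5p is set beside the miR-125 family:
miR-351-5p: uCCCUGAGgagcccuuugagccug
miR-125a-5p: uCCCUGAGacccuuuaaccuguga
miR-125b-5p: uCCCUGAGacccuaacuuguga
These 3 have the same seed, and beyond it they diverge: miR-351-5p and miR-125a-5p had the same base at 10 of 24 positions when aligned from the 5′ end without gaps. The hairpins further along the strand gave the following guides:
miR-542-3p: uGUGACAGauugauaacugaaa
miR-450a-5p: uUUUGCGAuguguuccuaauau
miR-450b-5p: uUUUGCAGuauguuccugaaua
miR-450a-5p and miR-450b-5p had the same base at 15 of 22 positions but differ within the seed, by G7A and A8G with the base of miR-450a-5p first. No other mature name in the RefSeq table had the seed of miR-503-5p, miR-542-3p, miR-450a-5p or miR-450b-5p.

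The 9 members took 0.216% ± 0.00960 of all miRNA counts (SD, n = 2). Replicate 1 gave 8425 of 3776893 counts, or 0.223% (Wilson 95% interval 0.218% to 0.228%), and replicate 2 gave 8637 of 4122955, or 0.209% (0.205% to 0.214%). Intervals here and below cover counting error of reads only, since copies made by PCR were not told apart. Nearly all of it was miR-351-5p and miR-503-5p, which together made up 90.2% ± 0.673 of the members' counts.

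miR-351-5p, which carries the miR-125 seed, was the most abundant member with 6040 counts in replicate 1 and 5963 in replicate 2. Scaled to counts per 1000000 miRNA counts (CPM) these were 1599 and 1446 CPM, a mean of 1523 ± 108.1 CPM (SD, n = 2), and it ranked 75 and 82 among all names. miR-503-5p had 1599 and 1786 counts, or 423.4 and 433.2 CPM, and ranked 135 and 129. Its mean of 428.3 ± 6.94 CPM was one of the steadier values of the group, with the 2 libraries nearly level. miR-351-5p had 3.56 ± 0.310 times the counts of miR-503-5p, a gap far wider than the spread between libraries.

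The guides of the other hairpins were recovered at far lower levels, and miR-503-5p had 7.40 ± 0.327 times the counts of the most abundant of them, miR-450a-5p. miR-450a-5p had 223 and 234 counts, or 59.0 and 56.8 CPM. miR-542-3p, for which the survivin mRNA Birc5 has been described as a target, had 167 and 260 counts, or 44.2 and 63.1 CPM. miR-450b-5p had 146 and 238 counts, or 38.7 and 57.7 CPM. miR-542-3p and miR-450b-5p were higher in replicate 2, while miR-450a-5p was nearly level. Their means were 57.9 ± 1.62, 53.6 ± 13.3 and 48.2 ± 13.5 CPM (SD, n = 2). The order of miR-450a-5p and miR-542-3p was not the same in the 2 libraries, with ratios of 1.34 and 0.900. miR-542-3p had 1.12 ± 0.0363 times the counts of miR-450b-5p, but their Wilson 95% intervals overlapped in both libraries. miR-450a-5p is encoded identically by 2 hairpins, Mir450-1 and Mir450-2, and the counts do not separate them.

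The remaining 4 names are the strands that were the less abundant of their hairpins. miR-503-3p had 117 and 49 counts (31.0 and 11.9 CPM) and miR-542-5p had 86 and 71 (22.8 and 17.2 CPM). miR-351-3p had 30 and 19 counts (7.94 and 4.61 CPM), and miR-450b-3p had 17 in each library (4.50 and 4.12 CPM). All lay above the limit that a count of 0 allows, which is 3 counts, or 0.794 CPM in replicate 1 and 0.728 CPM in replicate 2. In the order of mean level, the ratio of neighbours' counts was above 1 in both libraries, by more than its SD, with Wilson intervals apart in each, for the steps from miR-351-5p to miR-503-5p, from miR-503-5p to miR-450a-5p and from miR-542-5p to miR-351-3p. The other neighbours (miR-450a-5p and miR-542-3p, miR-542-3p and miR-450b-5p, miR-450b-5p and miR-503-3p, miR-503-3p and miR-542-5p, miR-351-3p and miR-450b-3p) were not separated in this way. No test is attached to these steps, since the smallest p-value that an exact sign-flip test allows with 2 libraries is 0.5.

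**Figure D1:**
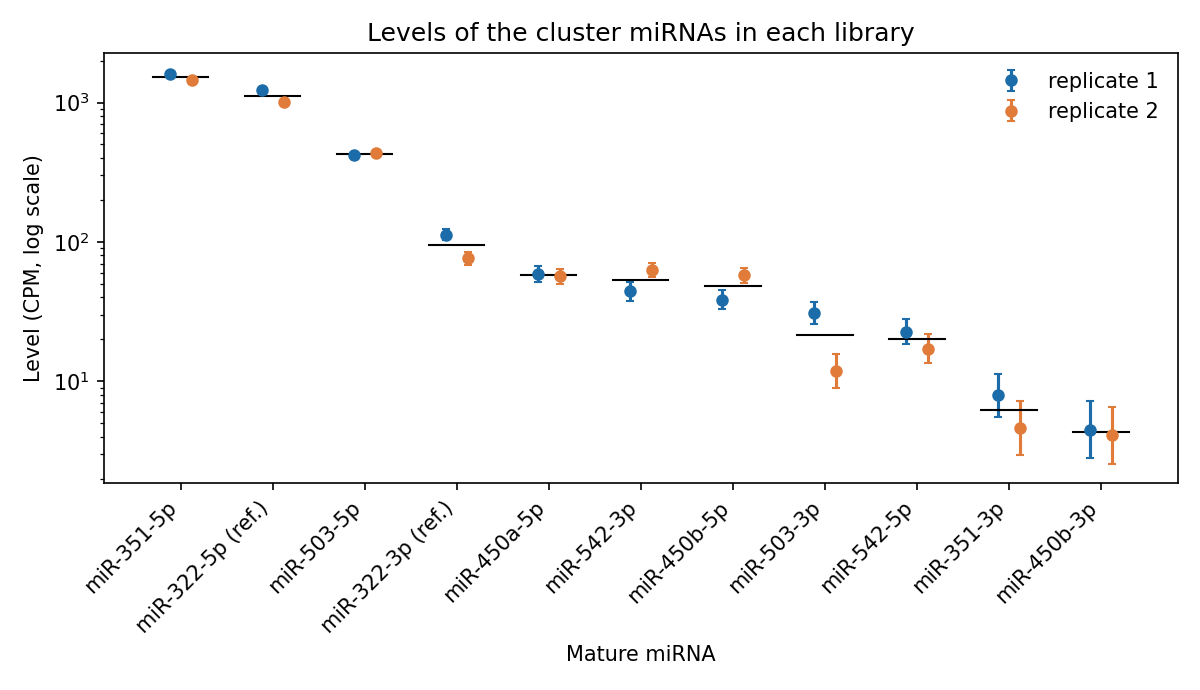
Level of each member and of the reference miR-322 arms in CPM on a log axis, in order of mean level. Points are the 2 libraries with Wilson 95% intervals (counting error only) and black bars are their means; miR-351-5p and miR-503-5p stand at 1523 and 428.3 CPM, above every other member, and miR-503-3p shows the widest gap between its libraries on this axis.

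The levels were next placed along the chromosome. RefSeq puts all 7 hairpins on the minus strand of the X chromosome within 6353 bases, in the transcribed order Mir322, Mir503, Mir351, Mir542, Mir450-2, Mir450-1 and Mir450b (GRCm38.p6, of the GRCm38 assembly that is also called mm10, the build in the submitters' processing notes). Mir322 (chrX:53054255-53054349), Mir503 (chrX:53053984-53054054) and Mir351 (chrX:53053255-53053353) lie inside the annotated non-coding RNA gene C430049B03Rik (chrX:53053112-53057190). Mir542 (chrX:53049403-53049487) begins 3767 bases after Mir351, outside that gene, and is followed by Mir450-2 (chrX:53048299-53048367), Mir450-1 (chrX:53048154-53048244) and Mir450b (chrX:53047997-53048078). Their place in exons or introns was not analysed here, since the gene table used gives gene bounds only.

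Counts summed over the named arms of a hairpin fell into separate ranges on the 2 sides of the end of C430049B03Rik. Inside it, Mir322 had 1213 ± 186.6 CPM, Mir503 449.7 ± 6.56 CPM and Mir351 1529 ± 110.5 CPM (SD, n = 2). Downstream of it, Mir542 had 73.6 ± 9.40 CPM, the 2 Mir450 hairpins together 57.9 ± 1.62 CPM from miR-450a-5p, and Mir450b 52.5 ± 13.2 CPM. The lowest hairpin inside the gene, Mir503, still had 6.16 ± 0.876 times the counts of the highest downstream, Mir542, with ratios of 6.78 and 5.54 in the 2 libraries. The 3 hairpins inside the gene held 94.5% ± 1.06 of the counts of all 7, with the miR-450a 3p names included. Within the gene the levels did not follow the order of the hairpins: Mir322 had 2.69 ± 0.376 times the counts of Mir503, which lies next to it, and Mir351, the third, exceeded both, with 1.27 ± 0.104 times the counts of Mir322.

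The base composition of the guides also differed between the 2 sides of the end of C430049B03Rik. Of the downstream minor strands among the members, miR-542-5p has a GC content of 54.5%, above that of miR-322-5p, and miR-450b-3p has 36.4%. Among the guides inside the gene, miR-322-5p had the lowest GC content and miR-503-5p the lowest level. The 3 downstream guides miR-542-3p, miR-450a-5p and miR-450b-5p each have a GC content of 31.8%, at or below which lie 3.41% of the 1231 names with a sequence, whereas miR-322-5p has 40.9%, miR-503-5p 56.5% and miR-351-5p 62.5%. Across those 1231 names (83.3% of all) the Spearman correlation of GC content with mean CPM was -0.11, a description over names that share the 2 libraries. The part of composition, ligation or amplification in the difference was not tested.

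**Figure D2:**
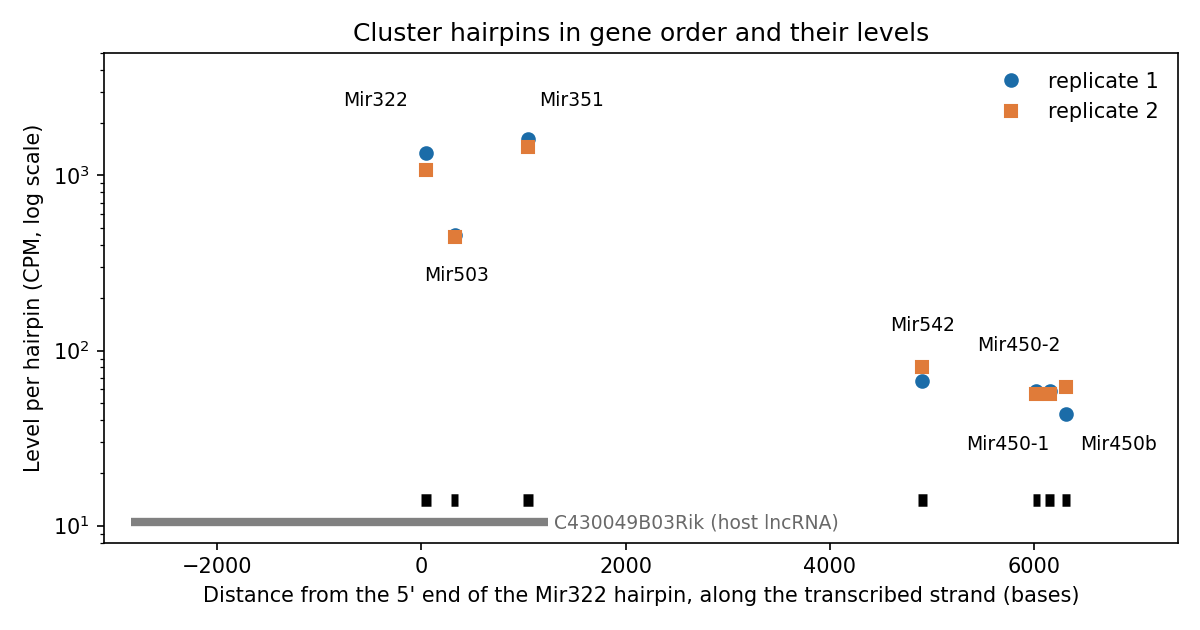
Level per hairpin (CPM, log axis) in each library against the distance from the 5′ end of the Mir322 hairpin, in bases along the transcribed strand. Black blocks are the 7 hairpins to scale and the grey bar is C430049B03Rik; the value of miR-450a-5p, which both Mir450-1 and Mir450-2 encode, is drawn at both. The 3 hairpins over the grey bar lie above the 4 beyond it in both libraries.

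miR-322-5p had 4652 and 4141 counts, or 1118 ± 160.7 CPM (SD, n = 2), which serves as a yardstick within the group. miR-351-5p had 1.37 ± 0.100 times its counts and was the higher in both libraries. miR-503-5p had 0.388 ± 0.0619 times, miR-450a-5p 0.0522 ± 0.00606 times, miR-542-3p 0.0493 ± 0.0190 times and miR-450b-5p 0.0444 ± 0.0184 times. Among these guides the last pair were the least steady for their level. In replicates 1 and 2 miR-542-3p had 0.0359 and 0.0628, and miR-450b-5p had 0.0314 and 0.0575. The less abundant strand miR-503-3p varied more, with 0.0252 and 0.0118.

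The strands of 4 member hairpins could be compared with an exact two-sided binomial test in each library, over the 164 hairpins of the series that had a name for each arm and reached 100 counts per library. The same arm led at an adjusted p-value under 0.05 (Benjamini-Hochberg) in both libraries for all 4 members' hairpins, and for 150 of the 164 (91.5%), so this share is close to the background. miR-351 was the most one-sided, with 99.5% and 99.7% of its counts from the 5p arm (Wilson 95% intervals 99.3% to 99.7% and 99.5% to 99.8%). miR-503 gave 93.2% and 97.3% from the 5p arm (91.9% to 94.3% and 96.5% to 98.0%). miR-450b gave 89.6% and 93.3% (83.9% to 93.4% and 89.6% to 95.8%), close to miR-322 with 91.6% and 93.0%. The median over the 164 hairpins was 94.6% for the leading arm.

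miR-542 differed from the other members in both respects: the 3p arm led, and the other arm kept a sizeable share. miR-542-5p held 34.0% of the hairpin's counts in replicate 1, with a Wilson 95% interval of 28.4% to 40.0%, against 21.5% in replicate 2, with one of 17.4% to 26.2%, and these intervals do not overlap. As large a change between the libraries, in points, was found for 29 of the 164 hairpins, miR-542 included. The 3p arm led in each library (adjusted p = 4.38e-07 and 2.22e-26, exact binomial tests on reads). A minor arm holding as large a mean share was found for 27 of the 164 hairpins, miR-542 included. The 2 strands of this hairpin are:
miR-542-5p: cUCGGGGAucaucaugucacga
miR-542-3p: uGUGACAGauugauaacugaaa
The leading strand starts with U and the other with C. The same held across the group, where the leading strands miR-503-5p, miR-351-5p, miR-542-3p, miR-450a-5p and miR-450b-5p, 5 of the 9 members, start with U, and the 4 minor strands do not. miR-322-5p, which starts with C, leads its hairpin too. U is the base that mammalian Argonautes are known to favour at this position. Of the 1231 names with a sequence, leading and minor strands together, 40.6% start with it. Whether the first base bears on which arm leads here was not tested.

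**Figure D3:**
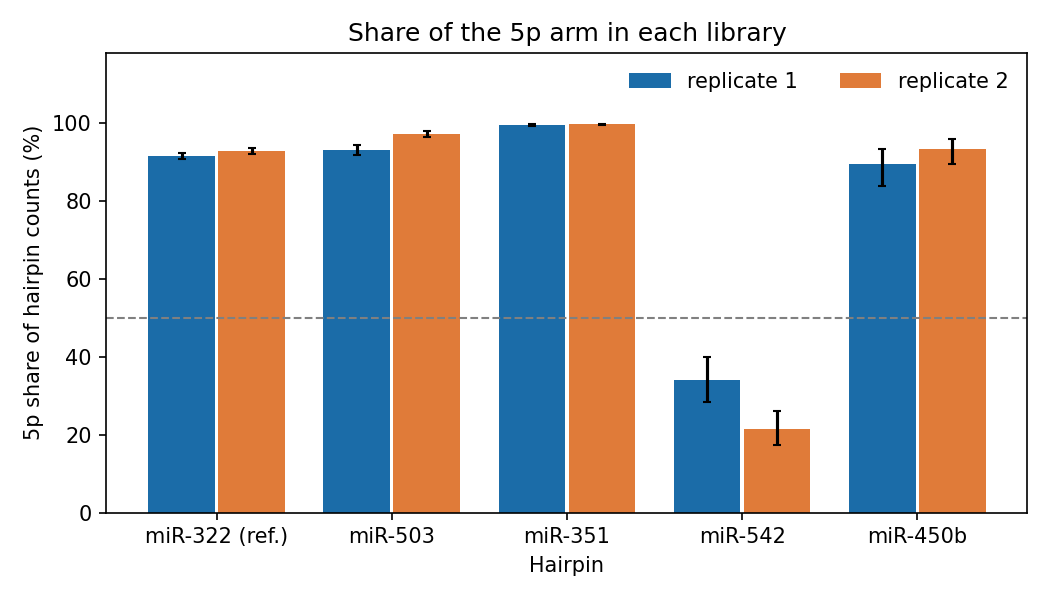
Share of the 5p arm in the counts of each hairpin, in percent, per library, with Wilson 95% intervals (counting error only). The dashed line marks equal arms; miR-542 is the only hairpin of these 5 below it, at 34.0% and 21.5%.

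The 3p strands of the miR-450 hairpins are shown together, because miR-450b-3p and miR-450a-1-3p are nearly alike:
miR-450b-3p: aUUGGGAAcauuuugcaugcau
miR-450a-1-3p: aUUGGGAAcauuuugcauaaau
miR-450a-2-3p: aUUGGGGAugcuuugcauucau
miR-450a-1-3p and miR-450b-3p have the same base at 20 of 22 positions and the same seed, whereas miR-450a-2-3p matches miR-450b-3p at 17 positions and differs in the seed. miR-450b-3p had 17 counts in each library, whereas miR-450a-1-3p was at 0 in both, which allows up to 0.794 and 0.728 CPM. The sources used here do not state how reads that match both were assigned.

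Among the names with a sequence, miR-503-5p was the only name with its full seed, but it shares the shorter stretch of bases 2 to 7 with the miR-15/16 family. The RefSeq table pairs 11 mature names with bases 2 to 7 of miR-503-5p, of which 8 were found. They are miR-16-5p, miR-15b-5p, miR-15a-5p, miR-322-5p, miR-503-5p, miR-195a-5p, miR-6342 and miR-6353, the last with 1 count in replicate 1 and 0 in replicate 2. These took 11.99% ± 0.107 of all counts (SD, n = 2), and miR-503-5p made up 0.357% ± 0.00897 of that. miR-16-5p, which is known to repress cyclins, had 260.9 ± 6.57 times the counts of miR-503-5p. miR-322-5p made up 0.935% ± 0.126 of its family by bases 2 to 8. miR-503-5p in turn had 3.26 ± 0.731 times the counts of miR-195a-5p, which had 583 and 473 counts. miR-497-5p, listed under a name that the RefSeq sequence table does not use, had 13 and 18 counts, and the miR-15/16 list had 7 of its 8 names in both libraries.

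miR-351-5p has the full seed of miR-125. The family with these bases 2 to 8 comprised 5 names (miR-125a-5p, miR-125b-5p, miR-351-5p, miR-6394 and miR-6367). All were found, though miR-6394 had 0 counts in replicate 1 and 68 in replicate 2. The family took 2.20% ± 0.112 of all counts. miR-351-5p made up 7.01% of it in replicate 1 and 6.81% in replicate 2, a mean of 6.91% ± 0.139 (SD, n = 2). miR-125a-5p, from chromosome 17, had 12.3 ± 0.289 times the counts of miR-351-5p. miR-125b-5p had only 1.14 ± 0.00590 times, with 6924 and 6786 counts, a small excess present in both libraries. For the miR-542 and miR-450 guides no other name with the seed was found, so each was the whole of its seed class among the 1231 names with a sequence. Names without a sequence could not be placed by seed.

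**Figure D4:**
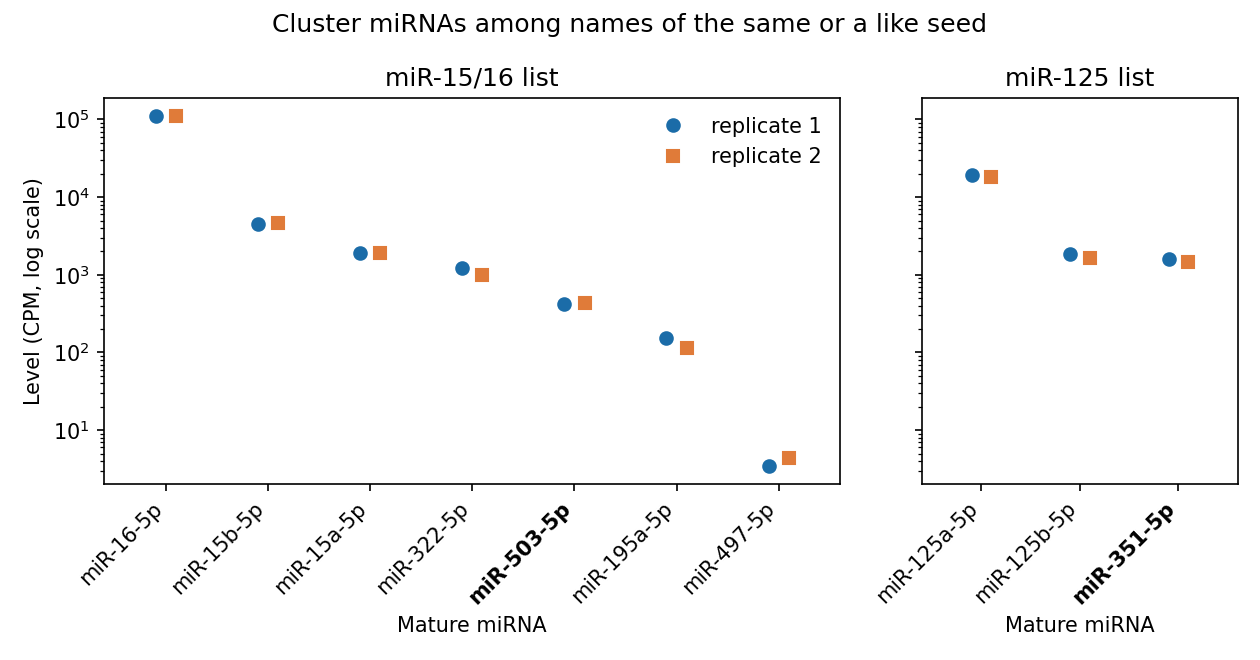
Levels (CPM, log axis) of the names of the miR-15/16 list and the miR-125 list found in the tables, per library, with the members miR-503-5p and miR-351-5p in bold. miR-503-5p lies below miR-322-5p and above miR-195a-5p, and miR-351-5p lies just below miR-125b-5p.

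For each name the reads of the 2 libraries were compared in an exact binomial test (two-sided), with Benjamini-Hochberg adjustment over the 1002 names whose mean count was 10 or more. The test compares these libraries, not conditions. It called 70.6% of all names tested, so differences beyond counting error were the rule, and 4 of the 9 members were among them. Of the members, 2 were higher in replicate 2 (36.2% of all names were) and 2 were lower (34.3% of all names). The median absolute log2 ratio was 0.40 over the members and 0.83 over all names tested.

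miR-503-3p differed most, with a log2 ratio of replicate 2 over replicate 1 of -1.38 (exact 95% interval -1.89 to -0.89, adjusted p = 1.83e-08). Its partner miR-503-5p, from the same hairpin, had 0.03 (-0.07 to 0.13, adjusted p = 0.565 by the exact test). miR-450b-5p was higher in replicate 2 with 0.58 (0.28 to 0.89, adjusted p = 0.000239) and miR-542-3p with 0.51 (0.23 to 0.80, adjusted p = 0.000614, both exact tests). miR-351-5p was lower with -0.14 (-0.20 to -0.09, adjusted p = 1.24e-07), a difference of 1.11-fold at a mean count of 6001.5. miR-450a-5p, miR-542-5p, miR-351-3p and miR-450b-3p had log2 ratios of -0.06, -0.40, -0.79 and -0.13 and did not pass, and for the last of these the interval ran from -1.19 to 0.93.

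None of these ratios exceeded the SD of the log2 ratio among names of like abundance found in both libraries. That SD was 1.71 from 30 to 100 counts, where miR-503-3p and miR-542-5p lie, and 1.04 from 100 to 300 counts, where miR-542-3p, miR-450a-5p and miR-450b-5p lie. It was 0.33 from 1000 to 10000 counts, where miR-503-5p and miR-351-5p lie, and 2.47 from 10 to 30 counts, where miR-351-3p and miR-450b-3p lie. A member with under 300 counts could thus differ by about 2-fold between libraries without standing out, which is wider than the gaps among the 3 downstream guides.

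**Figure D5:**
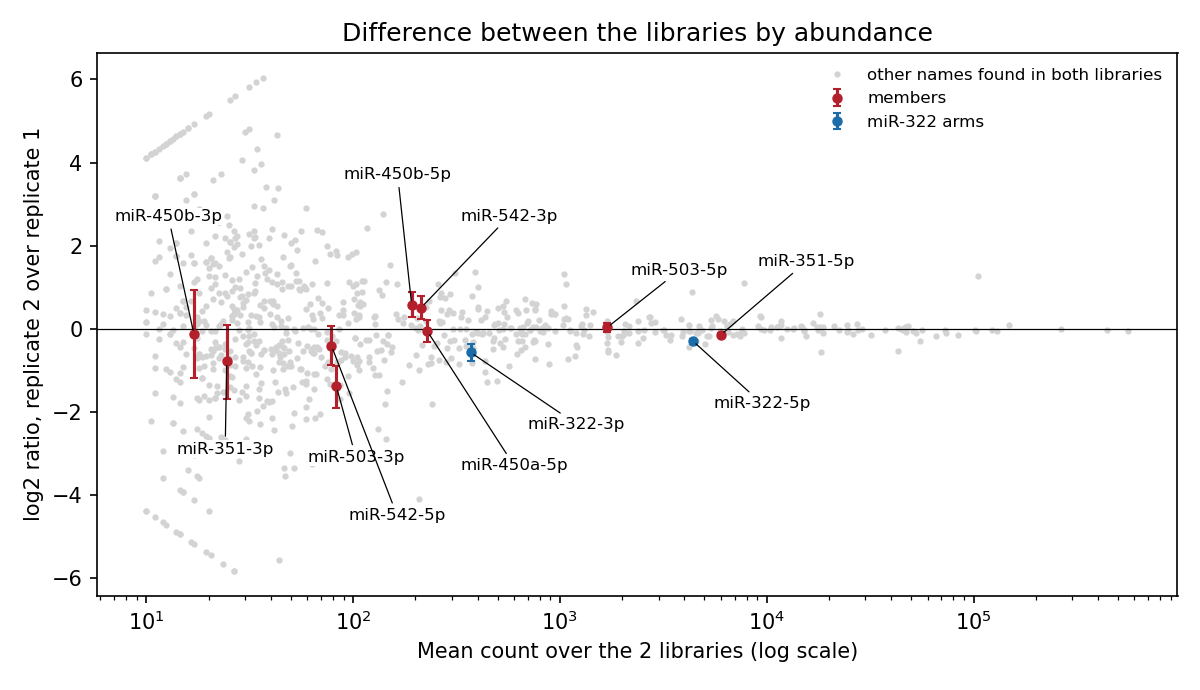
log2 ratio of replicate 2 over replicate 1 against the mean count (log axis), for names found in both libraries with a mean count of 10 or more. Members are red and the miR-322 arms blue, with exact 95% intervals, and other names are grey; the members lie inside the grey spread at their abundance, and miR-503-3p is the lowest of them at -1.38.

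Among miRNAs placed only on the X chromosome by RefSeq (121 names found, 2.89% ± 0.192 of all counts), the members took 7.50% ± 0.166 of the counts (SD, n = 2). miR-351-5p was the fourth, miR-322-5p the sixth and miR-503-5p the ninth of these names by mean CPM. Of the other X-linked groups listed for comparison, miR-221-3p and miR-222-3p together took 0.594% ± 0.0401 of all counts, above the 0.216% of the members. The 6 names found of the listed names of miR-188, miR-362, miR-500, miR-501 and miR-532 took 0.168% ± 0.00671. These comparison lists hold a single arm of most hairpins, whereas the members include both arms of most. The shares are thus not like for like. For instance, miR-501-5p, with 789 and 694 counts in replicates 1 and 2, was not in its list. miR-652-3p, miR-98-5p and the miR-106a group took between 0.0283% and 0.0484%. The names closest in level to miR-351-5p over the 2 libraries, by the distance of log2(CPM + 1), were miR-744-5p (1553 ± 69.4 CPM), miR-804 (1502 ± 46.9 CPM) and miR-19a-3p (1640 ± 60.9 CPM), with distances of 0.06, 0.06 and 0.16.

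Markers of epithelial cells were abundant, with all 7 names of the epithelial list (such as miR-205-5p and miR-141-3p) in both libraries and 10.6% ± 0.0228 of the counts, as the keratinocyte label implies. The group of miR-322 and miR-503 is also known from muscle and mesenchymal cells. The mesenchymal list of 5 names took 0.00249% in replicate 1 and 0.0101% in replicate 2. miR-214-3p alone made this difference, at 26 counts against 364, while the list's other names had at most 35 counts, with miR-143-3p at 0 in replicate 2 and miR-199a-5p at 0 in replicate 1. The muscle list of 3 names took 0.00347% and 0.00204%, or 131 and 84 counts. Most of these were miR-206-3p, with 122 and 78 counts (32.3 and 18.9 CPM), while miR-1a-3p was at 0 in replicate 1 and miR-133a-3p at 0 in replicate 2. The members took 0.223% and 0.209%. Sums over different names do not show which cells the members came from, and this was not tested. The blood list took 0.000609% and 0.00119%, the neural list 0.0114% and 0.0102%, and the liver list, miR-122-5p alone, 0.000450% and 0.000849%. The neural counts were nearly all miR-9-5p, with 418 and 419, while miR-124-3p had 12 and 0. Of the 5 blood names, 2 were in both libraries.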

How the data were processed

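For each library the authors deposited 1 table that pairs mature miRNA names with raw counts, unnormalised, as the values show. The submitters' processing notes name cutadapt, Novoalign and the build mm10, without versions or roles. The miRNA reference, the treatment of PCR copies and the counting of chimeras are not given in the sources used here. Rows that are not miRNA names (0.00265% and 0.000218% of the counts) were left out, and missing names were set to 0. CPM used the miRNA total of each library. The replicates' counts differed beyond sampling noise (chi-square of 68.6 per degree of freedom), so they were kept as 2 samples.

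Levels, shares and ratios are means with the SD over the 2 libraries. Library and arm differences used exact binomial tests over the whole table. They were tried on simulated data that held counting error only, so the wider spread between these libraries was not covered. The named miRNAs were the members, miR-322, the miR-450a 3p names, names sharing a member's seed, fixed family, X-linked and marker lists, and the 3 names closest to the most abundant member. Members and lists were chosen with earlier results of these data known. Sequences, gene order and coordinates came from RefSeq tables of GRCm38.p6, where 1231 of 1477 names matched a mature sequence. Python 3.11.15, scipy 1.17.1, edgeR 4.0.16 and DESeq2 1.42.0 (scaling only) were used. Alternatives were other scalings, totals, count minimums, thresholds, summed counts and single libraries.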

Additional observations from a re-analysis of the deposited data

Results flagged for a closer look

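miR-450a-2-3p, the other strand of Mir450-2 and no member of the set described, was found with 5 counts in replicate 1, where the limit set by a count of 0 is 3. It had 0 in replicate 2, and it entered only the summed counts of all 7 hairpins and the share with miR-322 added.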

How the results depend on the processing

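TMM and DESeq2 scaling kept the geometric mean of the library totals, so a mean over both libraries could move little. Under them the members' share of the counts stayed at 0.216%. It was 0.252% in a total without miR-31-5p, 0.239% without names numbered 2000 and above, 0.338% with miR-322 and the miR-450a 3p names added, and 0.209% to 0.223% in the single libraries. Of 707 names and 4 members differing between the libraries, 441 and 1 (miR-503-3p) were left with a 2-fold ratio also required. With a minimum mean of 100 counts, where 358 names were tested, 254 and 3 passed. The levels of the 11 members and miR-322 arms moved by less than the SD under TMM and DESeq2 scaling, and 5 moved by more in the total without miR-31-5p, which is smaller. Summing both libraries left the 5 arm shares and 9 ratios to miR-322-5p within the SD. A value from summed counts always lies between those of the single libraries, so this outcome was fixed and tests nothing. Depth limits the members with under 100 counts most. No paired analysis was possible because the libraries form 1 group.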
